A study of Mus musculus with 7 samples.

Results

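Cell division genes were followed in macrophages sorted from healing mouse sciatic nerve. The set held 54 genes of the cell cycle and proliferation, matched by gene symbol, and all 54 were found among the 23361 genes of the table. By role, 9 genes control the G1 phase, 9 license DNA replication, 6 serve DNA synthesis, 13 drive entry into and exit from mitosis, 12 build the spindle or divide the cell, and 5 are chromatin or general proliferation genes. All 54 passed the filter on low counts and were tested among 12858 genes.

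All mice were wild-type BALB/cJ, an inbred strain. In every animal the left sciatic nerve was cut and repaired at once in an empty inert conduit, so no library came from uninjured nerve. Macrophages were sorted from the tissue bridge in the conduit by the gate Lin-F4/80+CD14+CD11b+CD16/32+, with exclusion antibodies to granulocytes, eosinophils, B cells, T cells, red blood cells and fibroblasts. PolyA+ RNA was sequenced (RNASeq) in 7 libraries, 3 made at day 5 after the repair and 2 each at days 14 and 28; any further libraries of these days were not analysed here. The ages of these mice, and whether each library was made from a single mouse, were not given in the sources used here, so the p-values below measure the spread between these libraries. The libraries held 18027190 to 35247116 fragments assigned to genes, and day 28 replicate 1 was the deepest.

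A cell that commits to division passes from G1 into S phase, where licensed origins fire and DNA is copied, and then through G2 into mitosis. D-type and E-type cyclins with their kinases release E2F factors from the retinoblastoma protein in G1, whereas the genes of mitosis are switched on later, largely by FOXM1 and MYB-containing complexes. Tissue macrophages can be replenished by blood monocytes or by division in place, and transcripts of mitosis are commonly read as a sign of the latter. RNA from a bulk sort cannot tell a larger share of dividing cells from more of these transcripts per cell.

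The sorted cells carried macrophage transcripts in every library. The summed level of 10 macrophage marker genes, in fragments per kilobase of transcript scaled to depth (FPKM), was 18040, 18888 and 16420 at day 5, 17638 and 22515 at day 14, and 18930 and 18240 at day 28, with most of it from Lyz2, lysozyme. Of these 10 genes, 1 rose and 1 fell at day 14, and 1 rose and 2 fell at day 28. Cd14, whose product was a sort marker, fell by 0.75 ± 0.16 (SE) on the log2 scale at day 14 and by 0.76 ± 0.16 at day 28, with adjusted p-values from edgeR of 0.0357 and 0.0145. Emr1, which encodes the sort marker F4/80, fell by 1.01 ± 0.17 at day 28 (adjusted p = 0.00650) and was at -0.46 ± 0.17 at day 14 (adjusted p = 0.139). Cx3cr1, the fractalkine receptor, rose by 1.92 ± 0.32 and 3.01 ± 0.32 (adjusted p = 0.0189 and 0.00107). What part these changes in the sorted population had in those of the cell cycle genes was not tested. Several lists for other cell types moved between days and are given here because the cell cycle genes moved between the same days. The 7 fibroblast markers summed to 28.8 to 74.1 FPKM at day 5, 223 and 81.2 at day 14, and 35.6 and 57.0 at day 28. Among them Thy1, whose product was an exclusion marker, stayed between 0.624 and 2.06 FPKM. The 5 neutrophil markers in the table summed to 258 to 285 FPKM at day 5, 523 and 531 at day 14, and 260 and 117 at day 28, nearly all of it from S100a8, S100a9 and Retnlg. Mpo reached at most 0.199 FPKM and Elane no more than 3 fragments in any library. The neutrophil marker Ly6g was not analysed here.

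The 7 T and NK cell markers summed to 2.55 to 4.23 FPKM at day 5, 14.5 and 8.59 at day 14, and 4.92 and 7.29 at day 28. Cd4 made up most of that sum, and Cd3e, which defines T cells, stayed between 0.0369 and 0.180 FPKM. Other genes of the list were higher at day 14. Lck, a T cell kinase, had 1, 0 and 5 fragments at day 5, 25 and 12 at day 14, and 8 and 7 at day 28 (log2 fold change 3.33 ± 1.02 at day 14, adjusted p = 0.0893), and Cd3g had none at day 5 or day 28 and 5 and 3 at day 14. The 6 endothelial markers summed to 14.6 to 27.1 FPKM at day 5, 14.0 and 7.53 at day 14, and 7.18 and 3.75 at day 28. The 5 erythroid markers were at 28.2 to 43.5 FPKM at day 5, 49.3 and 7.50 at day 14, and 0.103 and 10.02 at day 28. The 8 Schwann cell markers summed to 11.6 to 12.4 FPKM at day 5, 13.9 and 20.8 at day 14, and 20.4 and 18.7 at day 28, with Mbp holding most of it and Gfap at or under 3 fragments throughout. Of the B cell markers, Cd79a and Ms4a1 reached at most 0.253 and 0.179 FPKM, and Pax5 did not pass 3 fragments in any library. At day 14, Col1a2 and Cd4 were the genes of these lists for other cells that were called against day 5, both higher. At day 28, Mbp and Cd4 rose by 0.75 ± 0.19 and 0.96 ± 0.28, and Pecam1 and Kdr fell by 1.797 ± 0.373 and 3.02 ± 0.42. Tek and Alas2, at few fragments, were also called at day 28, Tek higher at 0.267 and 0.105 FPKM against at most 0.0184 at day 5, and Alas2 lower at 0 and 0.270 against 1.09 to 2.54. What part these other cells had in the changes below was not tested.

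**Figure D1:**
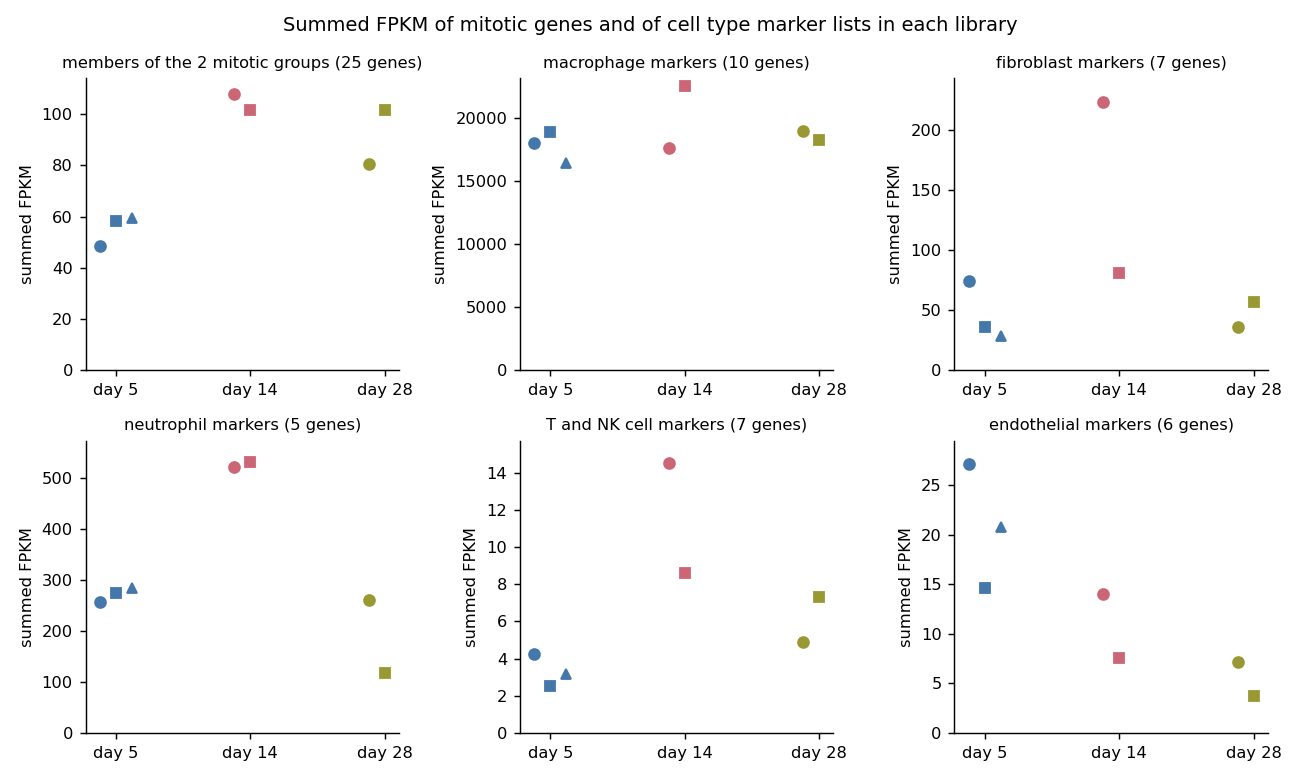
Summed FPKM (linear axis from 0) of the 25 mitotic genes and of 5 marker lists, 1 point per library, with circles, squares and triangles for replicates 1, 2 and 3. The mitotic genes were highest in both day 14 libraries and day 28 replicate 2, the fibroblast markers in day 14 replicate 1 alone, and the neutrophil markers in both day 14 libraries only.

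Most of the cell cycle genes had a higher fitted level at day 14 than at day 5 (50 of 54). Of the 54 genes, 13 rose and 1 fell, each at a p-value from edgeR's quasi-likelihood fit, adjusted by Benjamini-Hochberg over all genes tested, of under 0.05, which is what "rose", "fell" and "called" mean throughout. Among all genes tested, 4.78% were called between these days, with 2.84% higher and 1.94% lower at day 14. The median log2 fold change of the 54 genes was 0.78, against 0.03 for all genes tested. The day 14 libraries were both higher than every day 5 library for 36 of the 54 genes and both lower for 2, where 21.9% and 21.4% of all genes tested did so.

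Day 28 was also compared with day 5, with the same 3 day 5 libraries, so the comparisons are not independent. Between days 28 and 5, 10 of the 54 genes rose and 2 fell, while 15.2% of all genes tested were called, 7.74% higher and 7.51% lower. The share of the 54 genes called higher was 18.5%. Their median log2 fold change was 0.53, against 0.03 for all genes. Both day 28 libraries were above all day 5 libraries for 26 of the 54 genes and below them for 3, and 26% and 25.6% of all genes tested were so separated.

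Between days 28 and 14 none of the 54 genes was called by edgeR, and 4 of them had an unadjusted p under 0.05. Of all 12858 genes tested, 1570 had an unadjusted p under 0.05. DESeq2 and limma also called none of the 54. Only 0.0622% of all genes tested were called in this comparison, 0.0311% in each direction. The median log2 fold change of the 54 genes was -0.21, against 0.01 for all genes tested. The day 14 mean exceeded the day 28 mean for 44 of the 54. Of all 12858 genes tested, 6278 had a lower fitted level at day 28 than at day 14. Under limits taken from the study's stringent set but applied to edgeR's calls in place of Cuffdiff's, which add a mean of at least 5 FPKM on 1 of the days and at least a 2-fold difference of means, Rrm2, Stmn1 and Ccna2 passed for days 14 and 5 (1.17% of all genes tested), E2f8 and Cdt1 for days 28 and 5 (3.52%), and none for days 28 and 14 (0.0467%). Of the 54 genes, 25 had a mean of at least 5 FPKM over the 7 libraries.

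**Figure D2:**
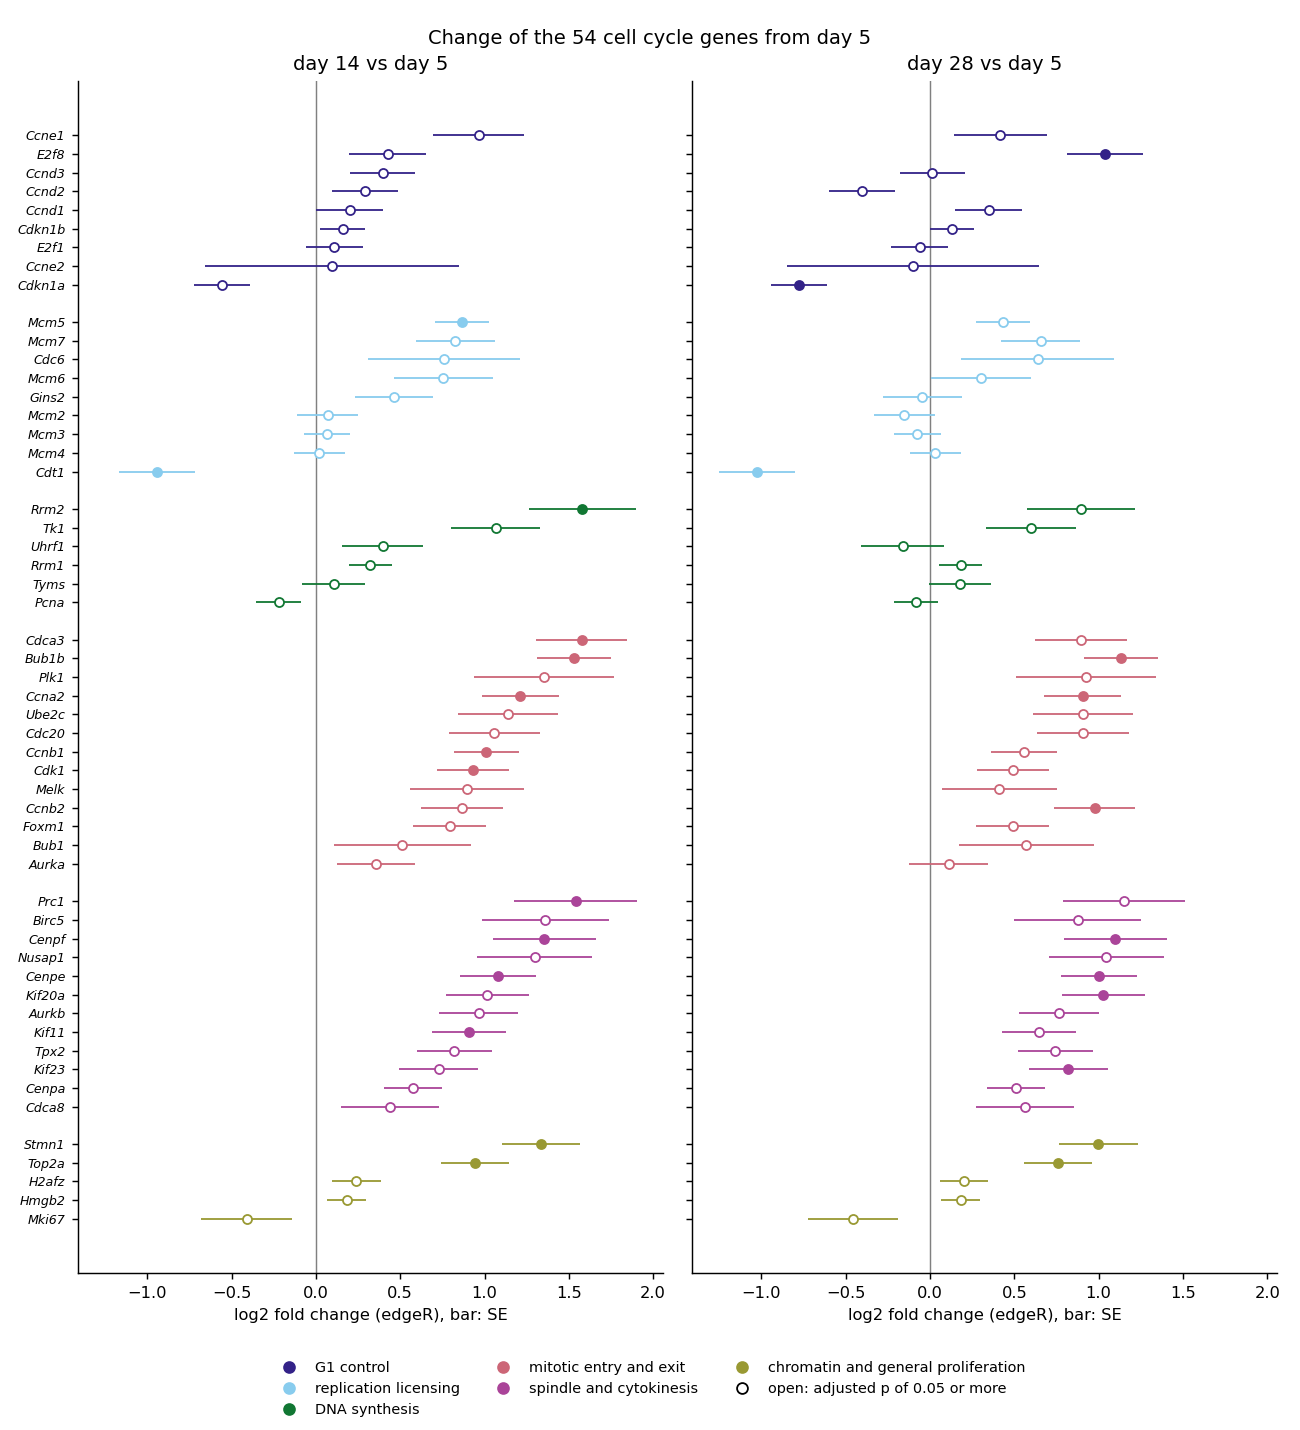
Log2 fold change of each of the 54 genes at day 14 (left) and day 28 (right) against day 5, with bars of 1 SE, coloured by role, filled where the adjusted p was under 0.05. All 25 mitotic genes lie to the right of 0 in both panels, whereas Cdt1, Cdkn1a, Mki67 and Pcna lie to the left in both.

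The genes of mitosis had the highest medians of the role groups in both comparisons with day 5. All 13 genes of mitotic entry and exit had a higher fitted level at day 14 than at day 5. Their log2 fold changes ran from 0.36 to 1.58 with a median of 1.01, and 5 rose (38.5%, against 2.84% of all genes tested). The same 13 had higher fitted levels at day 28 than at day 5, with a median of 0.90, and 3 rose (23.1%, against 7.74%). These are low-abundance transcripts: only 4 of the 25 genes of the mitotic and spindle groups together had a mean of at least 5 FPKM. Their summed level was 48.6, 58.3 and 59.3 FPKM at day 5, 108 and 102 at day 14, and 80.6 and 102 at day 28.

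Bub1b encodes BUBR1, a kinase-like protein of the spindle checkpoint that holds cells in mitosis until chromosomes are attached. It stood at 0.935, 0.812 and 1.12 FPKM at day 5, 2.55 and 2.94 at day 14, and 1.96 and 2.202 at day 28. No later library overlapped day 5, and the log2 fold change was 1.53 ± 0.22 (SE) at day 14 and 1.13 ± 0.22 at day 28, with adjusted p-values of 0.0134 and 0.0111. Its checkpoint partner Bub1 was at 0.407, 0.928 and 1.26 FPKM at day 5 and 1.04 to 1.40 later, so that the days overlapped, and it was not called (log2 fold change 0.51 ± 0.41 at day 14).

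The cyclins of S phase and mitosis each had a call in at least 1 comparison with day 5. Ccna2, cyclin A2, which acts from S phase into early mitosis, was at 1.71, 2.75 and 2.73 FPKM at day 5, 5.78 and 5.26 at day 14, and 4.89 and 3.96 at day 28. It rose by 1.21 ± 0.23 at day 14 and 0.90 ± 0.23 at day 28, with adjusted p-values of 0.0249 and 0.0290. Its exons share 510 bases with Exosc9 on the opposite strand, a gene with a mean of 10.8 FPKM here, and since strand was not stated those reads cannot be assigned with certainty. Ccnb1, cyclin B1, the main mitotic cyclin, stayed between 1.998 and 2.07 FPKM at day 5, and reached 3.996 and 4.11 at day 14 and 3.04 and 2.85 at day 28. It rose at day 14 (log2 fold change 1.01 ± 0.19, adjusted p = 0.0268) and missed the threshold at day 28 (0.56 ± 0.19, adjusted p = 0.0837). Ccnb2, cyclin B2, was at 2.63, 3.33 and 2.93 FPKM, then 5.81 and 4.95, then 4.69 and 6.94. It was called at day 28 (0.98 ± 0.24, adjusted p = 0.0269) and not at day 14 (0.87 ± 0.24, adjusted p = 0.0720). Whether the cyclins differed from each other in time course was not tested.

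Cdk1, the kinase these cyclins activate, was at 1.54, 1.95 and 1.87 FPKM at day 5, 3.47 and 3.32 at day 14, and 2.2 and 2.81 at day 28, and rose at day 14 (0.93 ± 0.21, adjusted p = 0.0423). At day 28 its log2 fold change was 0.49 ± 0.21 (adjusted p = 0.152), and the comparison of days 28 and 14 was not called (adjusted p = 0.486). Cdca3, a trigger of mitotic entry, went from 1.44, 2.04 and 1.52 FPKM to 4.81 and 5.05 and then 2.73 and 3.43. Its log2 fold change of 1.58 ± 0.27 at day 14 (adjusted p = 0.0205) was the highest of the mitotic entry and exit group. At day 28 it was 0.90 ± 0.27, short of the threshold (adjusted p = 0.0568).

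The regulators that end mitosis did not pass the test at either day. Cdc20 and Ube2c, an activator and the ubiquitin-conjugating enzyme of the anaphase-promoting complex, had log2 fold changes of 1.06 ± 0.27 and 1.14 ± 0.30 at day 14, with adjusted p-values of 0.0562 and 0.0589. The mitotic kinases Plk1 and Aurka gave 1.35 ± 0.41 and 0.36 ± 0.23, and Melk gave 0.90 ± 0.34. Foxm1, the transcription factor of the mitotic programme, was at 1.76, 1.99 and 1.85 FPKM at day 5, 3.91 and 2.55 at day 14 and 2.27 and 2.96 at day 28. Every later library exceeded every day 5 library for Foxm1, yet neither comparison passed, with adjusted p-values of 0.0680 and 0.158.

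The spindle and cytokinesis group numbered 12 genes. All 12 had higher fitted levels at day 14 (median log2 fold change 0.99, 4 called) and at day 28 (median 0.85, 4 called) than at day 5. Those calls were 33.3% of the group at each day, against 2.84% and 7.74% of all genes tested called higher. Cenpe, a kinesin that brings chromosomes to the spindle equator, was at 0.539, 0.664 and 0.647 FPKM at day 5, 1.20 and 1.38 at day 14, and 0.992 and 1.47 at day 28. Its log2 fold changes were 1.079 ± 0.226 (adjusted p = 0.0354) and 1.001 ± 0.225 (adjusted p = 0.0196). Cenpf, a large kinetochore protein, had the lowest levels of the called genes, at 0.214, 0.338 and 0.255 FPKM (57 to 76 fragments) at day 5, 0.693 and 0.673 at day 14, and 0.410 and 0.742 at day 28. It rose by 1.36 ± 0.31 and 1.10 ± 0.31 (adjusted p = 0.0416 and 0.0418).

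Prc1, which bundles the microtubules of the central spindle, rose from 0.745, 1.52 and 1.48 FPKM to 4.23 and 2.98 at day 14 (1.54 ± 0.36, adjusted p = 0.0464) and was at 1.92 and 3.60 at day 28 (adjusted p = 0.0625). Kif11, the motor that pushes spindle poles apart, was at 0.736 to 0.919 FPKM at day 5, 1.47 and 1.55 at day 14 and 1.20 and 1.32 at day 28, and rose at day 14 (0.91 ± 0.22, adjusted p = 0.0492). That call of Kif11 held in 2 of 17 alternative settings. Among those that lost it were RLE size factors (0.90, adjusted p = 0.0519) and Cuffdiff scaling (0.90, adjusted p = 0.0514). The cytokinesis kinesins Kif20a and Kif23 were called at day 28 and missed the threshold at day 14. Kif20a was at 0.966, 1.18 and 1.51 FPKM at day 5, 2.12 and 2.79 at day 14 and 2.35 and 2.60 at day 28 (1.02 ± 0.25 and then 1.03 ± 0.25, with adjusted p-values of 0.0501 and 0.0237). Kif23 was at 1.18, 1.36 and 1.64, then 2.09 and 2.49, then 2.11 and 2.79 FPKM (0.73 ± 0.24 and then 0.82 ± 0.23, with adjusted p-values of 0.105 and 0.0448). Kif20a shares 1271 exonic bases with Cdc23 on the opposite strand, and Prc1 shares 911 with Rccd1, also on the opposite strand.

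The chromosomal passenger complex did not pass the test. Aurkb, its kinase, was at 1.96 to 2.85 FPKM at day 5, 4.59 and 5.05 at day 14 and 3.67 and 4.73 at day 28, without overlap (0.97 ± 0.23, adjusted p = 0.0501 at day 14). Birc5, survivin, was at 2.77, 3.78 and 3.45 FPKM, then 8.99 and 8.62, then 3.56 and 9.51, so that day 28 replicate 1 lay within the day 5 range and replicate 2 above every other library. Cdca8, borealin, overlapped between days at 3.02, 3.68 and 6.08, then 5.08 and 6.38, then 5.84 and 6.63 FPKM. The remaining members of the group, Nusap1, Tpx2 and the centromeric histone gene Cenpa, had log2 fold changes of 1.30 ± 0.34, 0.82 ± 0.22 and 0.57 ± 0.17 at day 14, none past the threshold.

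Over the mitotic and spindle groups together, both day 14 libraries exceeded all day 5 libraries for 23 of 25 genes, the exceptions being Bub1 and Cdca8. Both day 28 libraries did so for 19 of 25, the exceptions being Bub1, Plk1, Aurka, Melk, Birc5 and Cdca8. Among all genes tested, 21.9% and 26% were so separated at days 14 and 28. The day 28 libraries were unlike each other. Replicate 2 was above replicate 1 for 21 of these 25 genes (median log2 ratio of FPKM 0.37, with 0.1 added to each value) and for 44 of all 54 (0.39), whereas the day 14 libraries split 13 to 12. Day 28 replicate 1 was also the library with the lowest erythroid and the deepest total count given above, and the part of either was not tested.

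**Figure D3:**
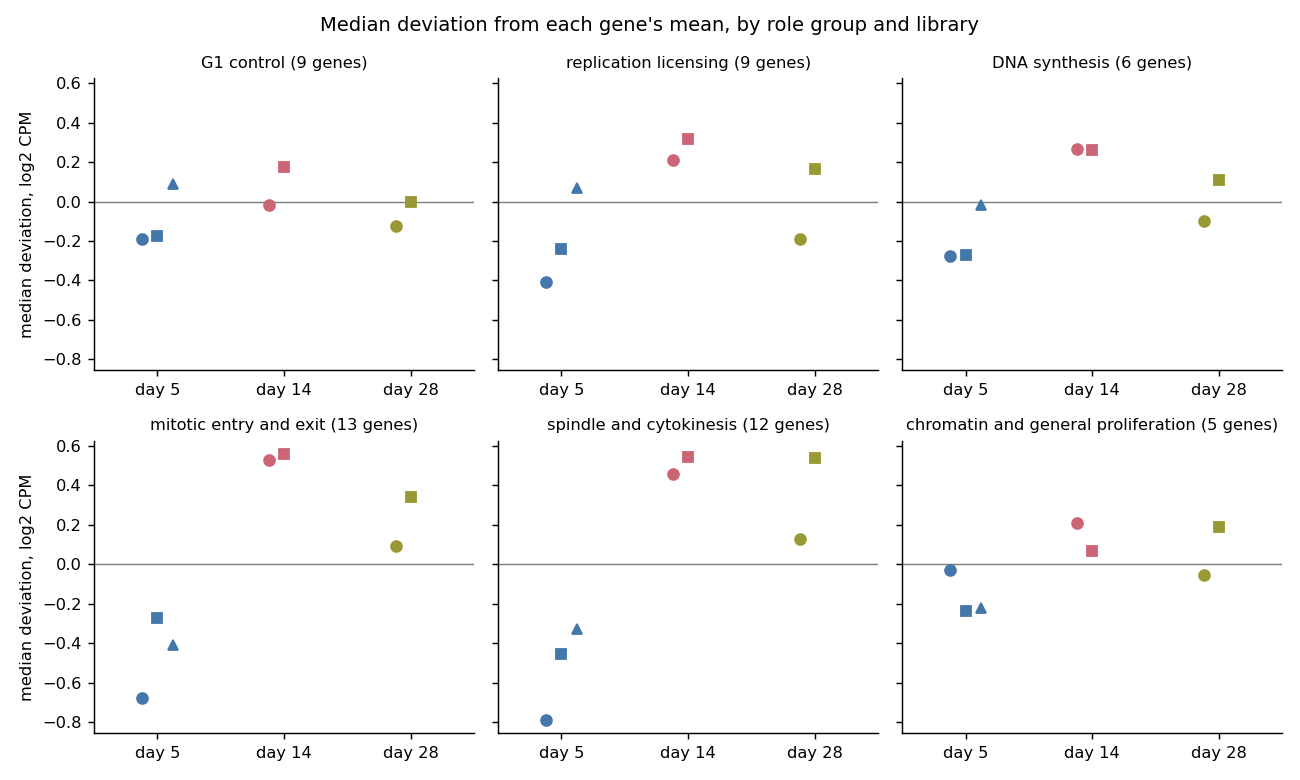
Median over the genes of each role group of the deviation of log2 CPM (counts scaled to library size) from that gene's mean over the 7 libraries, 1 point per library, with circles, squares and triangles for replicates 1, 2 and 3. In both mitotic groups the day 5 libraries lie below 0 and the other 4 above it, whereas the G1 control group shows no such order.

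The promoters of mitotic genes often carry a cell cycle homology region (CHR) together with CCAAT boxes, the sites through which MuvB complexes and NF-Y act, while genes of S phase more often carry E2F sites. RefSeq promoter windows (build GRCm38.p6, 250 bases before to 50 after each start site) were at hand for 42 of the 54 genes, 47 windows in all. They were searched on both strands. The CHR was taken as TTTGAA and, as a variant, TTCGAA. The box of the CCAAT kind was taken by those letters alone. An E2F site was taken as TTTCCCGC, as TTTGGCGC, as TTTCGCGC or as TTTGCCGC. No motif contains another. A CHR match was found in 16 of the 21 windows of the mitotic and spindle genes (76.2%) and in 6 of the 26 windows of the other members (23.1%), with 19.2% of all 32851 windows of the table holding one. CCAAT was found in 85.7% of the mitotic windows, 65.4% of the others and 37.4% of all windows. E2F letters were found in 6 of the 8 licensing windows (75.0%), in 1 of the 7 DNA synthesis windows (14.3%), in 0 of the 8 G1 windows, in 1 of the 21 mitotic windows and in 2.26% of all windows. Both CHR and CCAAT stood in 76.2% of mitotic windows, 23.1% of the others and 7.53% of all windows. Those others included all 3 windows of the chromatin and general proliferation genes, those of Top2a, Mki67 and Hmgb2. Of these genes only Top2a was called against day 5. A match says only that the letters are there.

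The windows of the 3 mitotic genes with the lowest p between days 28 and 5 among those with a window, and of the G1 gene with the lowest p, are shown to let these motifs be seen beside the genes that rose. Each runs 5′ to 3′ on the strand of the gene from 250 bases before the start site to 30 after it, with the motif matches in capitals (on the opposite strand CCAAT reads ATTGG and TTTGAA reads TTCAAA). Bub1b (chr2:118597961-118598240, plus strand) holds a CHR match at -188, the variant TTCGAA, and an inverted CCAAT at -113. A further CHR match of Bub1b, TTTGAA at 41, lies in the window searched but past the end of the bases shown. Cenpe (chr3:135212313-135212592, plus strand) holds CCAAT at -12 and no CHR letters. Ccnb2 (chr9:70421525-70421804, minus strand) holds 3 CCAAT matches at -87, -54 and -21 and CHR letters at -167 and 5. The 30 bases after its start site were not found in a GENCODE M21 transcript, unlike those of Bub1b, Cenpe and E2f8. Positions in Ccnb2 thus hold for the RefSeq start only. E2f8 (chr7:48881567-48881846, minus strand) holds an inverted CCAAT at -112 and an inverted CHR at -20.
Bub1b: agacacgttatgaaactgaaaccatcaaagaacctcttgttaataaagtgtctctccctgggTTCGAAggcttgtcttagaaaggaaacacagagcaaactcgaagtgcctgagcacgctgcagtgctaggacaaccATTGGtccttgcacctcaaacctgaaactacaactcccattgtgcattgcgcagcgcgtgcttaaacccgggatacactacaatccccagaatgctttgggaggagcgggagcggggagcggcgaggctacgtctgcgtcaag
Cenpe: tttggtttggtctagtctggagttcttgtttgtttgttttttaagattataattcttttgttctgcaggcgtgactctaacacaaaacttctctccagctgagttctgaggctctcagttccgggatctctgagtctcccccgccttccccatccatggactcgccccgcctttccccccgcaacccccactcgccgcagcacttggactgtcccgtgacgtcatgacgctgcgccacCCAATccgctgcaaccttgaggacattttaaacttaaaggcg
Ccnb2: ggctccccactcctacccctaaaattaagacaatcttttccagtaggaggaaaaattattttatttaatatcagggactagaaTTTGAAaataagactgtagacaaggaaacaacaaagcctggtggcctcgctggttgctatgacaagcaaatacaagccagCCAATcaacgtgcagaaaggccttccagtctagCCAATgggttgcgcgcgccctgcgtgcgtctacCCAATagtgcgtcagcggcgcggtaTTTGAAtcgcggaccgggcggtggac
E2f8: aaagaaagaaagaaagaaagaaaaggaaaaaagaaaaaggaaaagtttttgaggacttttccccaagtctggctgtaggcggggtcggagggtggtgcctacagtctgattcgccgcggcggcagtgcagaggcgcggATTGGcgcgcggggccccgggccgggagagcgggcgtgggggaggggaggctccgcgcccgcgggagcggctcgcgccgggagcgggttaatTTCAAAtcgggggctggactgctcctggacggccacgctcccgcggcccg

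Of the 9 replication licensing genes, 1 rose and 1 fell at day 14 (22.2% called, against 4.78% of all genes tested). At day 28 none of the 9 rose and 1 fell (11.1% called, under the 15.2% of all genes tested). Their median log2 fold changes were 0.46 and 0.03. Mcm5, a subunit of the MCM helicase that unwinds DNA at the fork, was at 4.18, 4.30 and 5.03 FPKM at day 5, 7.03 and 9.26 at day 14 and 5.93 and 6.13 at day 28. It rose at day 14 (0.87 ± 0.16, adjusted p = 0.0227) and not at day 28 (0.43 ± 0.16, adjusted p = 0.0966). Mcm6 and Mcm7 had log2 fold changes of 0.76 ± 0.29 and 0.83 ± 0.23 at day 14 without passing. Mcm2, Mcm3 and Mcm4, subunits of the same ring, had differences of 0.07, 0.07 and 0.02 at day 14, each smaller than its SE, at levels of 4.48 to 12.9 FPKM.

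Cdt1, which loads the helicase onto origins, moved the opposite way. It stood at 44.6, 32.7 and 35.8 FPKM at day 5, 23.9 and 15.2 at day 14, and 15.3 and 21.5 at day 28. All later libraries lay below all day 5 libraries, and it fell by 0.94 ± 0.22 on the log2 scale at day 14 and by 1.03 ± 0.22 at day 28, with adjusted p-values of 0.0479 and 0.0178. The day 14 call held in 5 of 17 alternative settings. With RLE size factors it was lost at a like log2 fold change (-0.95, adjusted p = 0.0510). Its level was far above that of its partner Cdc6, which was at 0.224 to 0.537 FPKM (20 to 51 fragments) at day 5 and 0.406 to 0.755 later. The ratio of Cdt1 to Cdc6 ran from 66.7 to 146 at day 5 and from 21.7 to 43.6 in the later libraries. Gins2, of the helicase-activating GINS complex, was at 5.39 to 8.53 FPKM at day 5 and 6.70 to 10.03 later and was not called, and 67.3% of its exonic bases are shared with Gse1 on the opposite strand.

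Among the 6 DNA synthesis genes, Rrm2 rose at day 14 (16.7% of the group, against 2.84% of all genes tested). None was called at day 28, where 15.2% of all genes tested were called. Rrm2, the subunit of ribonucleotide reductase made in S phase, was at 2.12, 1.52 and 3.11 FPKM at day 5, 6.87 and 6.53 at day 14, and 3.05 and 5.35 at day 28. Its log2 fold change was 1.58 ± 0.32 at day 14 and 0.90 ± 0.32 at day 28, with adjusted p-values of 0.0314 and 0.0882, and day 28 replicate 1 fell within the day 5 range. Its constitutive partner Rrm1 ranged from 5.28 to 7.26 FPKM over all libraries (0.32 ± 0.13 at day 14, adjusted p = 0.167). Tk1, thymidine kinase of S phase, was at 4.99, 5.71 and 7.27, then 11.8 and 13.04, then 6.42 and 11.8 FPKM (1.07 ± 0.26 at day 14, adjusted p = 0.0522).

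Pcna, the sliding clamp of DNA polymerase that also serves DNA repair, was abundant and was not called. It was at 171, 132 and 145 FPKM at day 5, 134 and 121 at day 14 and 143 and 136 at day 28, and the days overlapped (-0.22 ± 0.13 at day 14, adjusted p = 0.342). GENCODE M21 names 2 Pcna pseudogenes and 1 each for Ccnb1, Ccnb2, Ccnd3 and Tyms. How reads were shared with any of them is not known. Tyms, thymidylate synthase, stayed between 2.13 and 2.90 FPKM, and Uhrf1, which carries DNA methylation through replication, between 2.46 and 5.27, neither of them called.

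Of the 5 chromatin and general proliferation genes, 2 rose at day 14 and 2 at day 28. That was 40% at each day, against 2.84% and 7.74% of all genes tested called higher. Top2a, the topoisomerase that untangles sister chromosomes, was at 3.04, 3.20 and 4.09 FPKM at day 5, 7.05 and 6.11 at day 14 and 4.54 and 7.07 at day 28, and rose by 0.94 ± 0.20 (adjusted p = 0.0366) and 0.76 ± 0.20 (adjusted p = 0.0348). Stmn1, stathmin, which destabilises microtubules, was at 16.2, 12.2 and 19.1 FPKM, then 41.0 and 38.6, then 23.6 and 39.6. It rose by 1.34 ± 0.23 (adjusted p = 0.0209) and 0.999 ± 0.234 (adjusted p = 0.0222), the highest FPKM of any member that rose.

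Mki67, which encodes the Ki-67 antigen used to count dividing cells, was not called in either comparison. It was at 18.4, 16.2 and 12.4 FPKM at day 5, 14.6 and 8.89 at day 14, and 8.44 and 14.2 at day 28, with the days overlapping. Its fitted differences from day 5 were -0.41 ± 0.27 at day 14 and -0.46 ± 0.27 at day 28, with adjusted p-values of 0.387 and 0.278. Its level rested on 1970 to 4423 fragments a library, and none of its exons overlaps another gene in GENCODE M21. The ratio of Mki67 to Top2a FPKM was 6.06, 5.06 and 3.04 at day 5, 2.07 and 1.45 at day 14, and 1.86 and 2.01 at day 28. The difference between the courses of Mki67 and Top2a was not tested. H2afz, a histone variant at 198 to 277 FPKM, and Hmgb2, a chromatin protein at 12.4 to 15.7 FPKM, differed little between days (adjusted p of 0.313 or more against day 5).

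**Figure D4:**
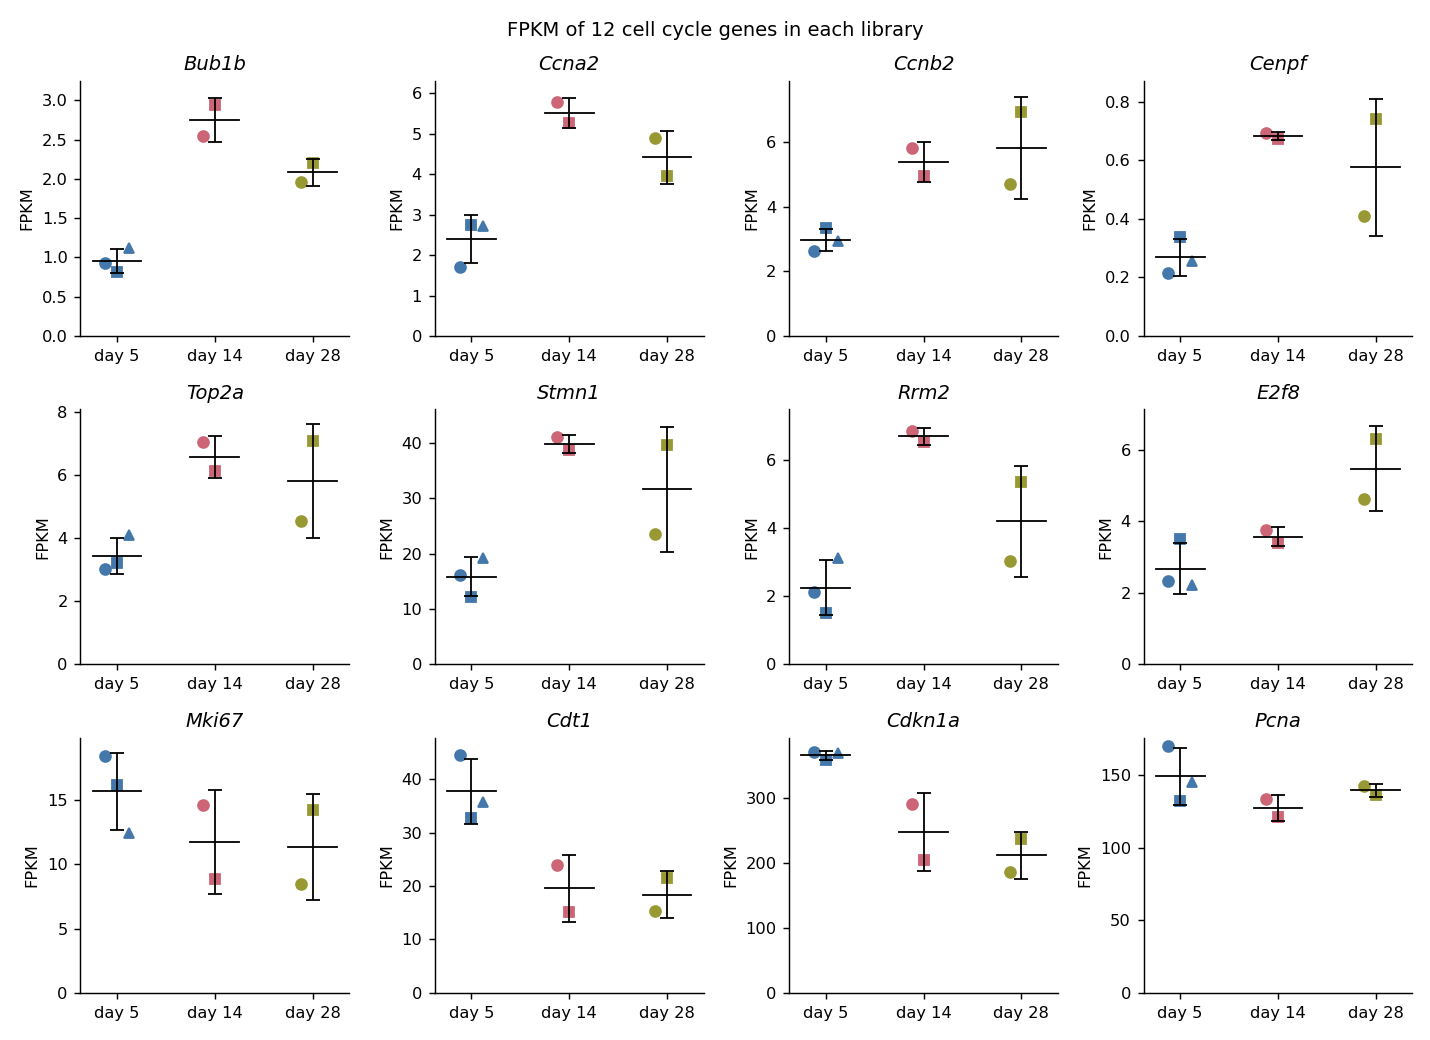
FPKM (linear axis from 0) of 12 genes in each library, with circles, squares and triangles for replicates 1, 2 and 3, lines at the means and bars of 1 SD (n = 3, 2 and 2). Bub1b, Ccna2, Ccnb2, Cenpf, Top2a and Stmn1 have every day 14 and day 28 point above day 5, Cdt1 and Cdkn1a every such point below it, and Mki67 and Pcna overlap.

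None of the 9 G1 control genes was called at day 14, where 4.78% of all genes tested were called. At day 28, 1 rose and 1 fell (11.1% each way), against 7.74% higher and 7.51% lower among all genes tested. The median log2 fold changes of the 9 genes were 0.20 and 0.01. Cdkn1a encodes p21, the inhibitor that halts the cycle at G1, and was the most abundant member at day 5. It stood at 371, 358 and 369 FPKM at day 5, 291 and 205 at day 14, and 187 and 237 at day 28. Every later library lay below every day 5 library, and its level fell by 0.78 ± 0.17 on the log2 scale at day 28 (adjusted p = 0.0171) but did not pass at day 14 (-0.56 ± 0.17, adjusted p = 0.0844). The related inhibitor Cdkn1b, p27, stayed at 17.9 to 22.9 FPKM in all libraries (adjusted p = 0.500 and 0.542).

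E2f8, a repressor that turns off E2F targets late in S phase, was the G1 member that rose. It was at 2.33, 3.49 and 2.22 FPKM at day 5, 3.77 and 3.38 at day 14 and 4.63 and 6.31 at day 28, with a log2 fold change of 1.04 ± 0.22 at day 28 and 0.42 ± 0.23 at day 14, with adjusted p-values of 0.0170 and 0.295. Its window is printed above. The activator E2f1 stayed at 7.27 to 10.2 FPKM and was not called.

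The D cyclins, which couple growth signals to G1, were not called. Ccnd3 was the most abundant, at 14.2 to 26.5 FPKM, followed by Ccnd1 at 4.24 to 7.40 and Ccnd2 at 1.26 to 2.70. Of the E cyclins, which start S phase, Ccne1 was at 1.38, 1.38 and 1.61 FPKM at day 5, 3.05 and 2.61 at day 14 and 1.67 and 2.22 at day 28 (0.96 ± 0.27 at day 14, adjusted p = 0.0732). Ccne2 had 4 to 26 fragments a library, and at that depth the SE of its log2 fold change at day 14 was 0.75. A change of the size of that in Ccne1 was thus not detectable. Of the exonic bases of Ccne2, 17.4% are shared with Ints8 on the opposite strand, a gene with a mean of 8.28 FPKM here.

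Other genes of the same processes, from 3 further lists, were counted in the same fit. Of 38 other mitosis genes, all tested, 5 rose and none fell at day 14, and 4 rose and none fell at day 28, with median log2 fold changes of 0.90 and 0.44. The share called was 13.2% at day 14 and 10.5% at day 28, against 4.78% and 15.2% of all genes tested. Anln, the cytokinesis scaffold anillin, was at 0.818, 0.698 and 0.830 FPKM at day 5, 2.08 and 1.77 at day 14 and 1.31 and 2.07 at day 28 (1.11 ± 0.24 at day 28, adjusted p = 0.0166). Kif15, a spindle kinesin, and Cdkn3, a phosphatase of CDKs, rose by 0.93 ± 0.27 and 2.2 ± 0.62 at day 28. Cdkn3 rested on few fragments, with 3, 7 and 4 at day 5 and 38 and 19 at day 28. Of 30 other replication genes, 1 rose at day 14, and 1 rose and 1 fell at day 28, with median log2 fold changes of 0.38 and 0.25, and the shares called, 3.33% and 6.67%, were below those of all genes tested. Those of day 28 were Pole, the leading-strand polymerase (1.03 ± 0.26 at day 28), and Pola2, a subunit of primase-polymerase, which fell by 0.66 ± 0.17.

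Of 24 other CDK, RB and E2F genes, 23 were tested, of which 3 rose at day 14, and 5 rose and 1 fell at day 28. The shares called were 13.04% and 26.1%, against 4.78% and 15.2% of all genes tested. Myc, a growth-promoting transcription factor, was at 9.55, 8.40 and 7.78 FPKM at day 5, 16.8 and 16.6 at day 14, and 11.6 and 20.2 at day 28 (0.97 ± 0.21 at day 14 and 0.90 ± 0.21 at day 28, with adjusted p-values of 0.0369 and 0.0215). Skp2, the ubiquitin ligase subunit that marks p27 for destruction, and Fbxo5, an inhibitor of the anaphase-promoting complex, rose by 0.79 ± 0.20 and 1.34 ± 0.36 at day 28.

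Leaving out a library changed the number of genes called, whereas the directions of the called genes stayed the same. Without day 5 replicate 1, 2 or 3, 0, 2 and 1 of the 54 genes were called at day 14. Over all genes tested, 63, 106 and 52 were then called, against 614 with all libraries, so the loss was not particular to the 54. At day 28 the same settings called 1, 3 and 6 of the 54, and the range over all genes is given below. Dropping day 14 replicate 1 or 2 left 1 library at that day. The median log2 fold change of the 54 genes at day 14 was then 0.79 or 0.71. DESeq2 called 28 of the 54 genes at day 14 (26 higher), where it called 1392 genes in all, and 20 of the 54 at day 28 (18 higher). In each of the alternative settings of test, scaling, filter and libraries the 14 and 12 called genes kept the sign of their change. The day 14 calls that held in the fewest of 17 alternative settings were those of Kif11 (2), Cdk1 (4), Prc1 (4) and Cdt1 (5).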

How the data were processed

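Macrophages sorted at days 5, 14 and 28 were profiled by RNASeq in 7 libraries, grouped by the time point in the labels. The authors used cutadapt 1.8 to trim the reads, which were single-end, TopHat2 2.0.13 to place them on mm10 and Cuffdiff 2.2.1 to quantify genes (names and versions from the submitters' processing notes). The deposited table holds, per gene and library, estimated counts of fragments (1.01% of values not whole), the same as a signal scaled between libraries, and FPKM computed by the authors. Strand is not stated. The estimated counts, rounded to whole numbers, were tested with edgeR 4.0.16 (TMM, filterByExpr, quasi-likelihood F test, time point as the only factor, all 7 libraries, 4 residual degrees of freedom), with Benjamini-Hochberg adjustment over 12858 genes and a threshold of 0.05. This table gives no sorting day or other batch. FPKM are shown as deposited.

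The alternatives were DESeq2 1.42.0, RLE and Cuffdiff scaling, no expression filter, limma 3.58.1 on log2 FPKM with pseudocounts of 1 and 0.1, only the libraries compared, the replicate number as a block, each library left out, and a threshold of 0.01. The scripts were tested on simulated data. The genes, role groups, marker and pathway lists were chosen with earlier results of these data known. All 54 genes were named, and from each pathway list the 3 called genes with the lowest p between days 28 and 5. R 4.3.3 and Python 3.11.15 were used. Sequences are from RefSeq (GRCm38.p6), gene models from GENCODE M21. 1 marker gene is not reported here.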

Additional observations from a re-analysis of the deposited data

How the results depend on the processing

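With 2 or 3 libraries a day, no group was large enough to look for an outlying library, and depth limited Ccne2 and Cdc6 most. Between days 14 and 5, the 614 genes and 14 of the 54 called became 1392 and 28 with DESeq2, 1429 and 29 with no expression filter, 277 and 5 with limma on log2(FPKM + 0.1), 252 and 5 on log2(FPKM + 1), and 24 and 0 at a threshold of 0.01. With only the 2 days compared, 315 genes were called. Between days 28 and 14, the 8 genes called became 346 with DESeq2, 390 with no expression filter, and 0 with limma on either scale, with only the 2 days compared and at the threshold of 0.01. Between days 28 and 5, the 12 of the 54 called became 20 with DESeq2, 20 with no expression filter and 0 at the threshold of 0.01. That threshold called 597 of the 1960 genes. Calls over all genes with DESeq2 and without the filter are not given for these days, so whether the 54 gained more than other genes cannot be read from the 20. On log2(FPKM + 1) the median log2 fold change of the 54 genes fell to 0.47 and 0.32 at days 14 and 28, since the pseudocount compresses low values. RLE and Cuffdiff scaling moved no count by over 1.5 times, and no setting changed the sign of a called gene.

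Leaving out each library in turn gave 52 to 1728 genes and 0 to 18 of the 54 between days 14 and 5, 0 to 629 and 0 between days 28 and 14, and 452 to 2746 and 1 to 18 between days 28 and 5. The medians of the 54 ran from 0.71 to 0.88, from -0.416 to -0.0422 and from 0.30 to 0.67. Where a day was left with 1 library, that library was assumed to vary like the others. Mki67 between days 28 and 14, not called, ran from -0.47 to 0.35, with a changed sign without day 14 replicate 1 (0.35) and without day 28 replicate 1 (0.28).

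With the replicate number as a block (replicate block), 6 genes and 0 of the 54 were called between days 14 and 5, 0 genes between days 28 and 14, and 735 and 2 between days 28 and 5, with 2 residual degrees of freedom. The labels give the libraries only a number in common, and whether same-numbered libraries were paired is not stated. Over 7556 genes, deviations of same-numbered libraries from their day means correlated at 0.40 and 0.06 between days 5 and 14. They correlated at -0.05 and 0.03 between days 5 and 28, and at -0.14 between days 14 and 28. With 2 libraries at days 14 and 28 the deviations there mirror each other, so these values cannot decide whether libraries were paired. With the day 28 numbers swapped in the replicate block, a choice made after seeing the data, the counts were 357 genes and 8 of the 54, 63 genes, and 1579 genes and 14 of the 54.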

Other observations

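Targets of p53, the stress-activated factor of which Cdkn1a is a textbook target, were a further list. It also held Trp53, the gene of p53 itself, which is counted in the numbers below. Of 14 listed genes other than Cdkn1a, 13 were tested, and 1 rose at day 14 and 2 at day 28, with median log2 fold changes of 0.23 and 0.06. The shares called were 7.69% and 15.4%, against 4.78% and 15.2% of all genes tested. Sesn1, a sestrin that restrains growth signalling, was at 9.97, 11.999 and 11.941 FPKM at day 5, 17.98 and 25.7 at day 14, and 25.4 and 23.7 at day 28. It rose by 0.94 ± 0.17 (SE) at day 14 (adjusted p = 0.0210, edgeR) and by 1.12 ± 0.17 at day 28 (adjusted p = 0.00370). Phlda3, an inhibitor of AKT, was at 1.07, 1.19 and 1.62 FPKM, then 2.75 and 2.78, then 3.64 and 2.42, and rose at day 28 (1.25 ± 0.33, adjusted p = 0.0332). Cdkn1a fell at day 28. Mdm2, the ubiquitin ligase that restrains p53, was at 188, 161 and 154 FPKM at day 5, 126 and 62.1 at day 14, and 94.7 and 97.7 at day 28, so that every later library lay below day 5, and it was not called (-0.83 ± 0.25 and -0.79 ± 0.25, adjusted p = 0.0848 and 0.0623). Bax, a promoter of cell death, had differences of -0.28 ± 0.13 and -0.39 ± 0.13 and was not called either. Differences in direction among these genes were not tested.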
